A study of Homo sapiens with 6 samples.

Results

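The insulin-like growth factor (IGF) binding proteins and IGF receptors were taken from the gene counts of A549 cells, a human lung adenocarcinoma line, by their symbols: IGFBP1 to IGFBP7, the receptors IGF1R and IGF2R, and the mRNA-binding protein gene IGF2BP3. These were 10 of the 40173 genes in the table, and 8 of them passed the filter on low counts that left 15250 genes for testing. The family was chosen from the increase of IGFBP1 and IGFBP3 in these same libraries, and from the spread of IGFBP3 between silenced libraries, so that for both genes the values are a description without a p-value. Their contrast is also the one in which the other members were tested.

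The cells had been transfected for a day with an siRNA against FAM83H-AS1, a long noncoding RNA, or with a scrambled negative control siRNA, and each group had 3 libraries of total RNA sequenced on an Ion Proton instrument. Both groups were the same cell line and had gone through transfection, and neither the labels nor the study's methods say which siRNA the sequenced cells received, or that the 3 libraries of a group came from separate cultures, so that p-values measure only the spread between these libraries, which may be technical. Library totals ranged from 9738291 to 17742643 counts.

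FAM83H-AS1 itself fell to 30.6% of its control level. It stood at 14.5, 16 and 17.3 CPM (counts scaled to the normalized library size) in control replicates 1, 2 and 3, and at 4.59, 4.44 and 5.57 CPM in silenced replicates 1, 2 and 3. Its log2 fold change was -1.70 with a standard error (SE) of 0.148 and an adjusted p of 7.99e-05 (edgeR's quasi-likelihood test with Benjamini-Hochberg adjustment over all tested genes). Of the genes that mark A549 as epithelial, KRT8 was at 1590 to 2080 CPM and KRT18 at 951 to 1360 CPM, whereas KRT19 was at 0.488 to 1.21 CPM and ALDH1A1, an aldehyde dehydrogenase gene known from A549, had 0 counts in 5 libraries. Across all tested genes, 2.14% were called, that is, passed both an adjusted p under 0.05 and more than a 2-fold change, and 1.14% were called higher after silencing.

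IGF1 and IGF2 act through IGF1R, a receptor tyrosine kinase that signals to the PI3K-AKT and MAPK pathways. The secreted IGF binding proteins hold these ligands in the extracellular fluid, where proteases release them, and IGF2R carries IGF2 to the lysosome. IGFBP3 is the main carrier of IGFs in the circulation, and IGFBP1 is a liver product known to respond to insulin and to low oxygen.

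The ligands were nearly absent from these cells. IGF1 and INS had 0 counts in the 6 libraries, and IGF2 had 1 count in each of control replicates 2 and 3 and 0 in the others. The overlapping read-through gene INS-IGF2 carried the same counts as IGF2, so that these reads cannot be assigned to either gene. A count of 0 allows up to 0.177 to 0.308 CPM, depending on the library, and this covers counting error only.

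IGFBP1 and IGFBP3 were the members with the largest change, and both were higher in every silenced library than in any control library. They are neighbours on chromosome 7: IGFBP1 lies on the plus strand (chr7:45888357-45893668) and IGFBP3 on the minus strand (chr7:45912245-45921874), with their 3′ ends facing each other and 18.6 kb without an annotated gene between them (GENCODE 29, GRCh38). The counts themselves had been assigned on GRCh37, and coordinates given here serve only to place the genes.

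IGFBP1 had 155, 230 and 355 counts in control replicates 1, 2 and 3, or 15.9, 19.9 and 21.0 CPM. In silenced replicates 1, 2 and 3 it had 746, 515 and 1030 counts, or 72.8, 47.6 and 76.6 CPM. The groups did not overlap, and the lowest silenced library was 2.27 times the highest control library. The mean went from 18.9 ± 2.65 CPM (SD, n = 3) to 65.7 CPM, a fold change of 3.45 and a log2 fold change of 1.78 with an SE of 0.169.

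IGFBP3 stood at 57.1, 95.1 and 92.0 CPM in control replicates 1, 2 and 3, from 555, 1101 and 1556 counts. Silenced replicates 1 and 3 were alike at 389 and 395 CPM, with 3981 and 5314 counts, whereas silenced replicate 2 was at 120 CPM with 1302 counts. That library lay only 1.27 times above the highest control library, and the 3 silenced libraries spanned a factor of 3.28, compared with 1.67 in the control libraries. The mean went from 81.4 ± 21.1 CPM to 301 ± 157 CPM (SD, n = 3), a fold change of 3.69 and a log2 fold change of 1.88 with an SE of 0.358. Without silenced replicate 2 the log2 fold change was 2.26, and leaving out any 1 library gave values between 1.64 and 2.26.

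**Figure D1:**
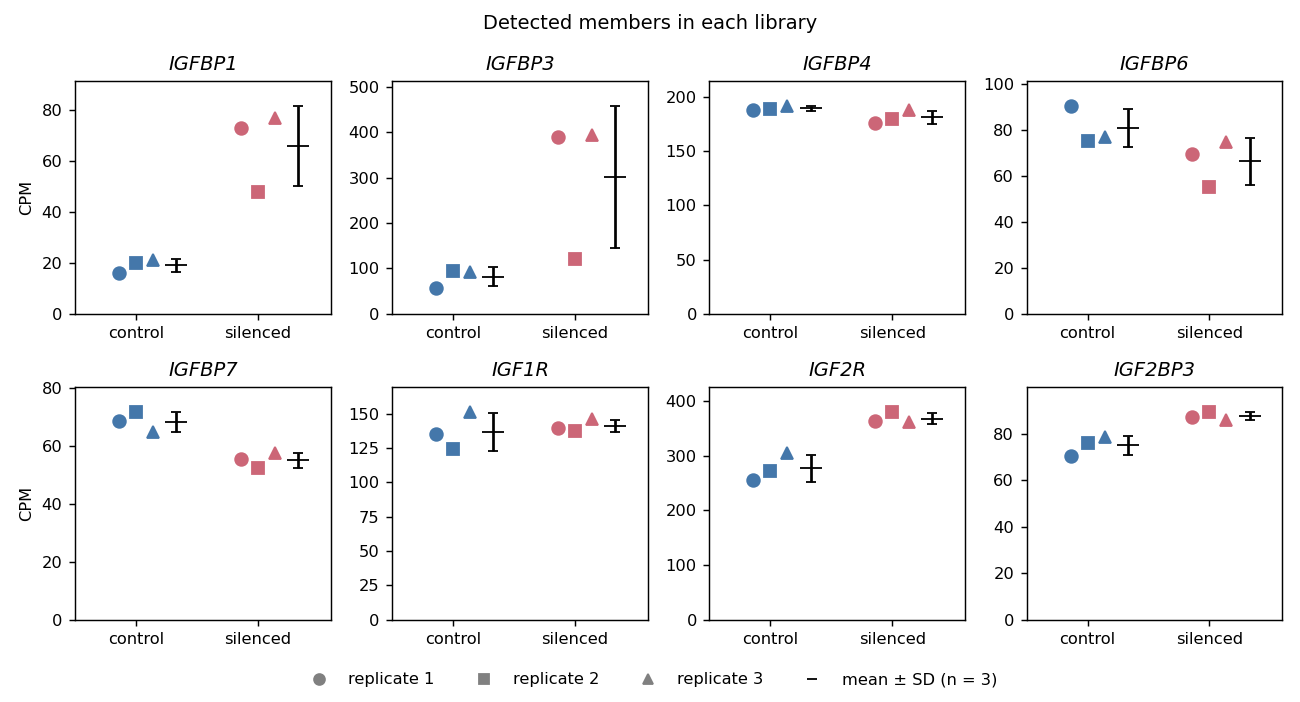
Level of each of the 8 tested members in CPM (vertical axis, starting at 0) in the control and silenced libraries, 1 point per library with the group mean and SD. IGFBP1 and IGFBP3 do not overlap between groups, and silenced replicate 2 of IGFBP3, at 120 CPM, sits near the control libraries.

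The spread of IGFBP3 between silenced libraries was among the reasons for choosing the family, and its size is given as a description. Its SD of log2 CPM between silenced libraries was 0.983, and 33 of the 12131 tested genes that averaged 50 counts or more per library had a larger one, against a median of 0.114. Between control libraries its SD was 0.412, with 321 genes above it and a median of 0.116, control replicate 1 being the low library. IGFBP1 had an SD of 0.376 between silenced libraries, where 435 genes were larger, and of 0.210 between control libraries, where 2126 were. Silenced replicate 2 was thus the lowest of its group for both neighbours, but by different amounts.

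Counts of IGFBP3 per count of IGFBP1 changed with it. The ratio was 3.58, 4.79 and 4.38 in control replicates 1, 2 and 3, then 5.34, 2.53 and 5.16 in silenced replicates 1, 2 and 3. Relative to its control mean, IGFBP3 was higher by 2.26, 0.56 and 2.28 on the log2 scale in the 3 silenced libraries, and IGFBP1 by 1.94, 1.33 and 2.02.

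**Figure D2:**
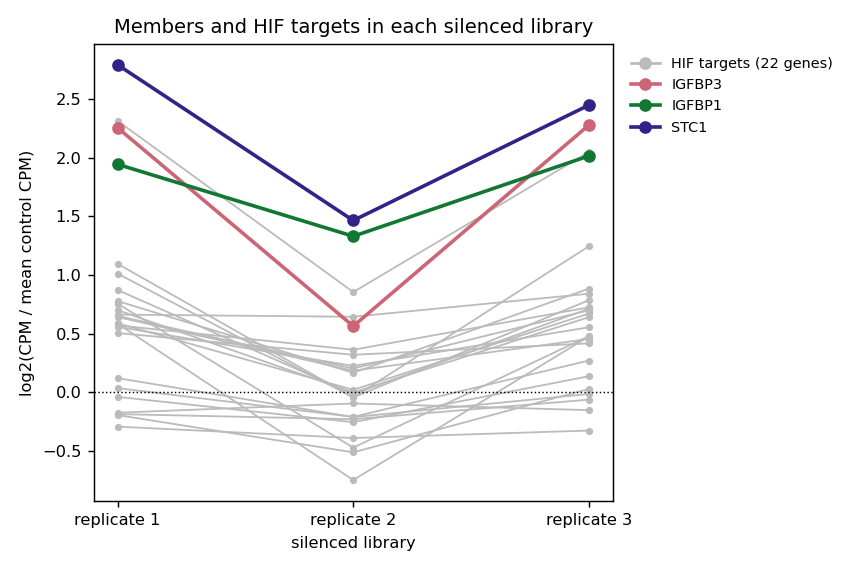
Log2 CPM relative to the control mean (vertical axis) in silenced replicates 1, 2 and 3 (horizontal axis) for IGFBP3, IGFBP1 and STC1. Grey lines are 22 target genes of the hypoxia-inducible factors. IGFBP3 drops from 2.26 in replicate 1 to 0.56 in replicate 2 and returns to 2.28 in replicate 3, and IGFBP1 follows with a smaller drop to 1.33.

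The genes nearest to IGFBP3 and IGFBP1 were picked by their profile over the 6 libraries, so that their likeness follows from the search. CA9, the hypoxia-regulated carbonic anhydrase IX, had the profile nearest to IGFBP3 across the 6 libraries, with a root mean square difference of 0.243 (log2 CPM, each gene centred on its control mean). It stood at 8.12, 11.2 and 8.34 CPM in the control libraries and at 45.9, 16.7 and 38.2 CPM in the silenced libraries, so that its silenced replicate 2 was also the low one. IGFBP1 came next at 0.374, followed by AGT (angiotensinogen) at 0.557, USH1C (the scaffold protein harmonin) at 0.561 and TTLL6 (a tubulin glutamylase) at 0.564. Nearest to IGFBP1 were TRAF1 (a TNF receptor adaptor) at 0.212, USH1C at 0.215, AGT at 0.222, CA9 at 0.288 and the cell adhesion gene CEACAM1 at 0.292. These 6 libraries are few and shared by all genes, and the distances only describe likeness.

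CA9 belongs to a list of 22 target genes of the hypoxia-inducible factors (HIF), none of them a member. In 21 of these 22 genes silenced replicate 2 was the lowest of the silenced libraries, as it was in 37.6% of the 12131 genes and in 54.4% of the 57 called higher among these. Relative to control the list's median log2 difference was 0.59, -0.03 and 0.52 in silenced replicates 1, 2 and 3. Its summed level was 3770 to 3854 CPM in the control libraries and 4263, 3405 and 4474 CPM in silenced replicates 1, 2 and 3. Of the list, 8 genes were higher and 0 lower at an adjusted p under 0.05, where the shares of all tested genes were 8.75% and 8.27%. Without silenced replicate 2, 13 were higher. That library was the lowest in 21 of the 22 genes, so that nothing is read from this rise. Of 15 tested genes of ATF4 and CHOP, the stress-response factors, 3 were higher and 6 lower, and silenced replicate 2 was the lowest in 8. The part of either list in the levels of IGFBP1 and IGFBP3 was not tested.

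**Figure D3:**
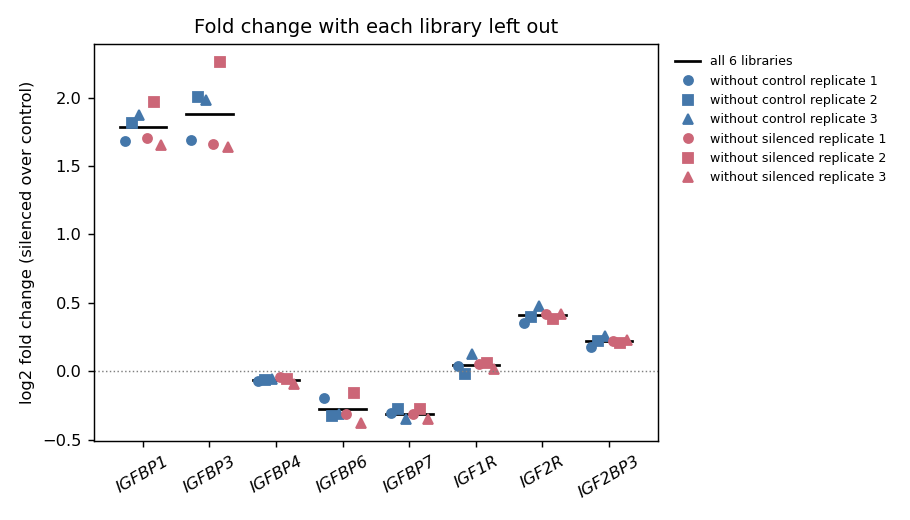
Log2 fold change of each tested member, silenced over control (vertical axis). A black line marks the full comparison, and points mark the fits with each of the 6 libraries left out in turn. Leaving out silenced replicate 2 moves IGFBP3 to 2.26, and IGF1R crosses 0.

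IGF2R rose in silenced cells. The gene encodes the cation-independent mannose 6-phosphate receptor, which sorts lysosomal enzymes and takes up IGF2. It stood at 255, 273 and 304 CPM in control replicates 1, 2 and 3 and at 363, 380 and 361 CPM in silenced replicates 1, 2 and 3. The groups did not overlap, as for 19.1% of all tested genes in this direction. The mean went from 277 ± 25.0 to 368 CPM, a fold change of 1.33 (log2 fold change 0.41, SE 0.0773, adjusted p 0.00604, edgeR). An adjusted p under 0.05 with a higher level, at any fold, was reached by 8.75% of tested genes, so that a change of this kind was not rare. The adjusted p stayed between 0.0037 and 0.0296 when any 1 library was left out.

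The promoter of IGF2R (RefSeq, GRCh38.p14, the 250 bases before to 50 after the start) held the E-box letters CACGTG at 3 places, each within the longer palindrome TCACGTGA, and they are shown because IGF2R was the member that passed the test upward. The windows below are on the plus strand, with the E-box in capitals, and positions are those of its first base from the start of the gene.
IGF2R, position -132, chr6:159968938-159968967: gcgcgctgcgctCACGTGacccgggcctgg
IGF2R, position -74, chr6:159968996-159969025: gaacaagggagtCACGTGagcggggggcgg
IGF2R, position -28, chr6:159969042-159969071: ccgggcggctgtCACGTGacgcggttccgg

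IGF2BP3 was the other member with this sequence. It held CACGTG at 2 places, 1 of them within TCACGTGA, and both are shown on the minus strand, on which the gene is transcribed.
IGF2BP3, position -174, chr7:23470648-23470677: tctgggattcctCACGTGagacgttgattt
IGF2BP3, position -146, chr7:23470620-23470649: ttgtagtttgaaCACGTGgctcattcaaaa

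CACGTG was found in 7.26% of the 35116 promoters and TCACGTGA in 0.98%. Both read the same on either strand. Of the 10 members, 8 had a promoter entry, and IGFBP1 and IGFBP7 had none. The other 6 with an entry held no CACGTG in their windows. The core ACGTG of the hypoxia response element, searched on both strands and contained in CACGTG, was present in 21.4% of promoters, and the window of IGFBP3 (chr7:45921223-45921522) did not hold it, whereas besides IGF2R and IGF2BP3 it was held once each by IGF1R and by a window of IGFBP2. The IGFBP3 window surrounds the RefSeq start and lies inside the GENCODE gene, whose outer end is set by a longer transcript, and the sequence before that end was not searched. A TATA box (TATAAA, 11.5% of promoters) was found in IGFBP4 alone, at position -29. The letters TGATGNAA were in 3.62% of promoters and in no member's window. The words were chosen after the windows had been looked at, and matches only describe the sequence.

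IGF2BP3, an mRNA-binding protein that binds IGF2 transcripts and is known as an oncofetal gene, was slightly higher without passing the test. It was at 70.4, 75.7 and 78.7 CPM in control replicates 1, 2 and 3 and at 87.0, 89.2 and 85.9 CPM in silenced replicates 1, 2 and 3. The groups did not overlap, but the log2 fold change was 0.22 (SE 0.0743, adjusted p 0.0655, edgeR). Reads from 2 annotated pseudogenes of IGF2BP3, and from MALSU1, which overlaps it on the opposite strand, may be shared with it, since the treatment of strand and multiple matches is not given in the sources used here. MALSU1 had a log2 fold change of -0.19 with an SE of 0.112. The paralogues IGF2BP1 and IGF2BP2 had log2 fold changes of -0.04 and 0.13, and neither passed the test.

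IGF1R, the signalling receptor, was at 135, 124 and 151 CPM in control replicates 1, 2 and 3 and at 140, 138 and 146 CPM in silenced replicates 1, 2 and 3. The groups overlapped. The log2 fold change was 0.04 with an SE of 0.0832 and an adjusted p of 0.748 (edgeR), and it lay between -0.02 and 0.12 when any 1 library was left out. INSR, the insulin receptor and close relative of IGF1R, was at 89.6 to 114 CPM in control and 109 to 118 CPM in silenced libraries (log2 fold change 0.17, adjusted p 0.242, edgeR). The related receptor INSRR had 2 to 5 counts per library.

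The remaining expressed binding proteins were lower or little different. IGFBP7 fell. It binds IGFs weakly and is found in the extracellular matrix. Its level was 68.8, 71.7 and 64.8 CPM in control replicates 1, 2 and 3 and 55.4, 52.3 and 57.5 CPM in silenced replicates 1, 2 and 3, without overlap, as for 17.5% of tested genes in this direction. Silenced cells held 80.6% of the control level (log2 fold change -0.31, SE 0.0773, adjusted p 0.0198, edgeR), where 8.27% of tested genes were lower at an adjusted p under 0.05. The adjusted p was 0.0662 without control replicate 2, 0.0726 without silenced replicate 1 and 0.0555 without silenced replicate 2. POLR2B, a subunit of RNA polymerase II, overlaps IGFBP7 on the opposite strand and had a log2 fold change of 0.01 with an SE of 0.0761.

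IGFBP6, which prefers IGF2, was at 90.5, 75.1 and 76.9 CPM in control replicates 1, 2 and 3 and at 69.3, 55.0 and 74.8 CPM in silenced replicates 1, 2 and 3. Every silenced library was below every control library, though the nearest values, 74.8 and 75.1 CPM, were close. The log2 fold change was -0.28 (SE 0.116, adjusted p 0.121, edgeR) and did not pass. IGFBP4, which binds both IGFs and is cut by the protease PAPPA, was at 188, 189 and 192 CPM in control replicates 1, 2 and 3 and at 176, 180 and 188 CPM in silenced replicates 1, 2 and 3. Its groups did not overlap either, but the nearest values were 188.1 CPM in silenced and 188.2 CPM in control libraries. The log2 fold change of IGFBP4 was -0.06 (SE 0.0656, adjusted p 0.545, edgeR).

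IGFBP2 and IGFBP5, a pair of neighbours on chromosome 2 (chr2:216632828-216664436 and chr2:216672105-216695525, GRCh38), had 0 counts in each of the 6 libraries. The upper limit that a count of 0 allows, given above for the ligands, holds for both.

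Of the 8 tested members, 2 were called, against 2.14% of all tested genes, and these were IGFBP1 and IGFBP3, whose increase led to the choice of the family, so that nothing is read from this count. Of the other 6, IGF2R and IGFBP7 passed an adjusted p under 0.05 with a fold change below 2, and 4 did not pass. Groups did not overlap for 4 members that were higher, IGFBP1 and IGFBP3 among them, and for 3 that were lower, where the shares of all tested genes were 19.1% and 17.5%, and they overlapped for IGF1R. Among the lower members, the nearest values of the groups were close for IGFBP4 and IGFBP6.

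Levels can be compared between members per length of exon. In control cells the median CPM per kb of exon was 85.9 for IGFBP4, 57.3 for IGFBP6, 37.9 for IGFBP7, 34.9 for IGFBP3, 19.4 for IGF2R, 17.8 for IGF2BP3, 12 for IGFBP1 and 11 for IGF1R. The ranges of 3 neighbouring pairs in this order overlapped, namely IGFBP7 and IGFBP3, IGF2R and IGF2BP3, and IGFBP1 and IGF1R. In silenced cells IGFBP3 came first by its median of 148 CPM per kb, with a range of 45.7 to 150. This range overlapped those of IGFBP4, IGFBP6 and IGFBP1. Its lowest library, silenced replicate 2, lay below the lowest IGFBP4 library at 80.1 CPM per kb. IGFBP4 came next with a median of 81.9. IGFBP6 followed at 51.6, IGFBP1 at 44.1, IGFBP7 at 30.5, IGF2R at 25.9, IGF2BP3 at 20.5 and IGF1R at 11.4 CPM per kb, and here the range of IGFBP1 overlapped those of IGFBP6 and IGFBP7. IGFBP1 was in the seventh place in control and the fourth in silenced cells, but in the eighth in control by coding length.

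**Figure D4:**
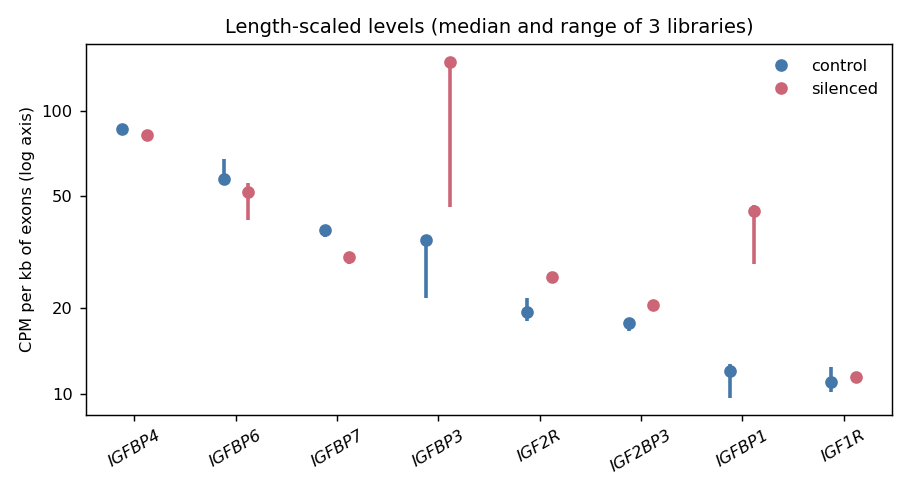
Level per length in CPM per kb of exon (log axis) for the 8 tested members in control and silenced libraries. Points are medians over the libraries of a group, and lines span their range. IGFBP4 leads in control at a median of 85.9, and IGFBP3 spans 45.7 to 150 in silenced libraries.

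The proteases that free IGFs from their binding proteins, and the inhibitors of these proteases, formed a list of 17 genes. Of the 12 tested, 2 were higher, 1 was lower and 9 did not pass. Among all tested genes, 8.75% were higher and 8.27% lower at an adjusted p under 0.05, and 2.14% were called. STC1, a stanniocalcin that inhibits PAPPA, was the called gene of the list. It was at 1.13, 0.691 and 0.591 CPM in control replicates 1, 2 and 3 and at 5.57, 2.22 and 4.39 CPM in silenced replicates 1, 2 and 3. The groups did not overlap, silenced replicate 2 was again the lowest of its group, and the log2 fold change was 2.38 (SE 0.396, adjusted p 0.00317, edgeR). ADAM17, a membrane sheddase, rose by a log2 fold change of 0.38, and ADAM12, which cleaves IGFBP3 and IGFBP5, fell by 0.37 on the log2 scale. PAPPA itself was at 1.21 to 2.47 CPM in control and 1.95 to 3.51 CPM in silenced libraries, with overlap. Without silenced replicate 2, STC1 alone of this list passed. ADAM12 kept an adjusted p under 0.05 only without control replicate 1, with values up to 0.148 when another library was left out, and ADAM17 only without control replicate 2, with values up to 0.0656 (edgeR).

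Of 14 listed genes, which except for IGFALS share the IGF-binding domain with the IGFBPs, 9 were tested. CYR61, a matricellular protein of the CCN family, rose with a log2 fold change of 0.56 (SE 0.0729) from 131 to 148 CPM in control to 199 to 210 CPM in silenced libraries. CRIM1, a transmembrane protein that binds BMPs, rose by 0.40. HTRA1, a secreted serine protease, fell from 46.1 to 55.1 CPM in control to 26.4 to 33.2 CPM in silenced libraries (log2 fold change -0.79, SE 0.105), and KAZALD1 fell by 0.50 on the log2 scale. CRIM1 no longer passed an adjusted p under 0.05 without control replicate 1 (adjusted p 0.0504, edgeR), control replicate 2 (0.0613) or silenced replicate 1 (0.0688). KAZALD1 no longer passed it without control replicates 1 or 3 (both 0.0746) or silenced replicates 2 (0.0516) or 3 (0.0895). The other 5 tested did not pass, and 4 of the 14 had 0 counts in all libraries. The shares of all tested genes that passed were 8.75% higher and 8.27% lower.

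Downstream of the receptors, 35 of 39 listed adaptors and PI3K-AKT signalling genes were tested, of which 6 were higher, 5 were lower and 24 did not pass. Among all tested genes, 8.75% were higher and 8.27% lower at an adjusted p under 0.05, and 2.14% were called. Both called genes of the list were lower. PTPN1, the phosphatase PTP1B that dephosphorylates the insulin and IGF1 receptors, was at 104 to 106 CPM in control and 33.7 to 39.3 CPM in silenced libraries (log2 fold change -1.53, SE 0.0806). FOXO4, a transcription factor restrained by AKT, was at 17.5 to 19.7 CPM and 8.14 to 9.18 CPM (log2 fold change -1.07, SE 0.118). MTOR, the growth kinase, fell by 0.58 on the log2 scale, and AKT2 and INPPL1 were also lower, INPPL1 with an adjusted p of 0.0547 (edgeR) without silenced replicate 2. FOXO3 rose by a log2 fold change of 0.47, and the other higher genes were FOXO1, PIK3CB, RICTOR, IRS2 and SOCS3. The adjusted p of PIK3CB was 0.0524 without control replicate 1, and that of RICTOR was 0.0505 without silenced replicate 1 (edgeR). IRS2 kept an adjusted p under 0.05 only without control replicate 1 or silenced replicate 2, with values up to 0.128 otherwise, and SOCS3 only without silenced replicate 2, with values up to 0.127.

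IGF2R shares its sorting route with 13 listed genes of mannose 6-phosphate transport, which were all tested. M6PR, the cation-dependent mannose 6-phosphate receptor, was at 70.5 to 76.7 CPM in control and at 88.6 to 104 CPM in silenced libraries (log2 fold change 0.36, SE 0.0829, adjusted p 0.0146, edgeR). SNX2, a sorting nexin, was higher by 0.40 (SE 0.121, adjusted p 0.0426), and lost this without any library but silenced replicate 3, with an adjusted p of up to 0.111. M6PR had an adjusted p of 0.0537 without silenced replicate 1 (edgeR). SORT1, the sorting receptor sortilin, fell by 0.43 on the log2 scale. The other 10 genes did not pass an adjusted p under 0.05, where the shares of all tested genes were 8.75% higher and 8.27% lower.

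**Figure D5:**
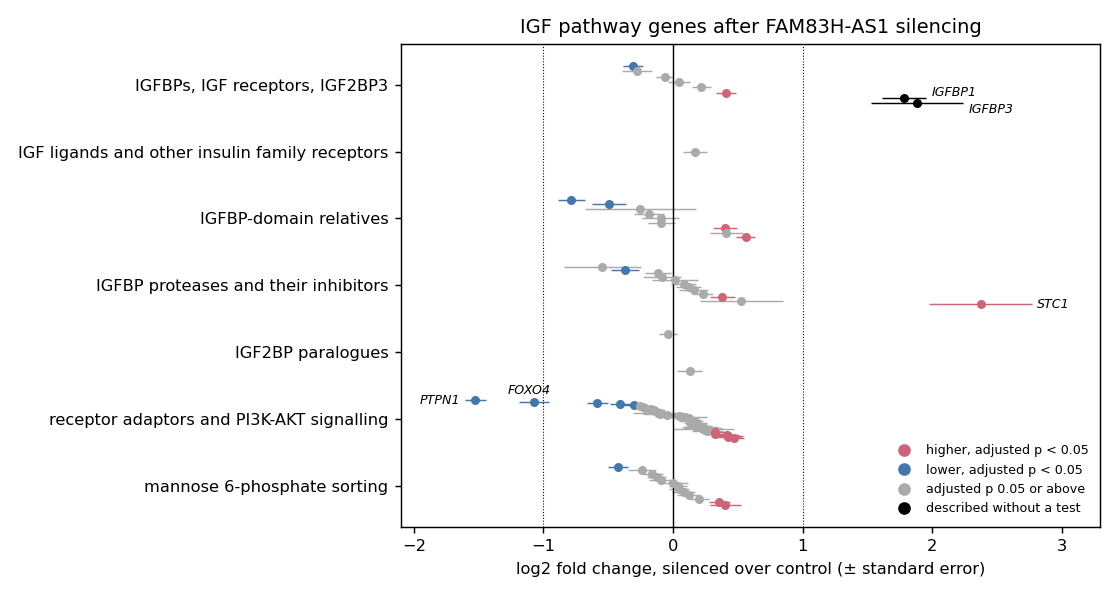
Log2 fold change with its standard error (horizontal axis) for the tested genes of the members and of 6 lists of IGF pathway genes, each gene 1 point, with dotted lines at a fold change of 2. STC1 at 2.38 lies beyond IGFBP1 and IGFBP3, and PTPN1 at -1.53 and FOXO4 at -1.07 lie on the other side.

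Markers of other cell types were measured beside these results. Of 10 genes for blood, fibroblast and endothelial cells, 4 were tested, and the summed level of the list was 153.6 to 176.9 CPM in control and 257 to 296 CPM in silenced libraries. CD68, a lysosomal protein also known from macrophages, carried the difference, with 123 to 141 CPM in control and 224 to 253 CPM in silenced libraries. The other tested genes did not pass an adjusted p under 0.05 in edgeR. Over all libraries COL1A1 was at 25.7 to 37.3 CPM, CDH5 at 1.93 to 4.43 CPM and VWF at 0.74 to 2.08 CPM. CD3E had 0 counts in all libraries and PTPRC had 0 or 1. LUM, DCN, COL3A1 and PECAM1 were also too low to be tested. LUM had 3, 1 and 2 counts in control and 10, 7 and 8 in silenced replicates 1, 2 and 3. DCN had 0, 1 and 0, then 4, 3 and 2, and COL3A1 2, 1 and 8, then 13, 5 and 4. At these few counts, LUM and DCN were higher in every silenced library than in any control library. PECAM1 had 0 to 2 counts. The part of these genes in the members' levels was not tested. The 3′-UTR word CCAATAA, present in 12.3% of 11552 tested genes, was in none of the 10 members.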

How the data were processed

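Gene counts of 6 A549 libraries (Ion Proton, total RNA) were used. Reads were aligned and assigned to genes by the authors with MapSplice, and the deposited values are raw counts. The submitters' processing notes name GRCh37. The aligner's handling of strand and multiple matches and the annotation are not given in the sources used here. Groups came from the sample titles.

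In R 4.3.3, counts were filtered by filterByExpr, scaled by TMM (factors of 0.955 to 1.02) and compared by the quasi-likelihood test of edgeR 4.0.16 (common dispersion 0.0108), with Benjamini-Hochberg adjustment for 15250 genes. Calls needed more than a 2-fold change and an adjusted p under 0.05. Log2 fold changes are silenced over control, and SE is its absolute value divided by the square root of F. For 1 gene, the smallest p of an exact permutation test is 0.1 in this design. Other work used Python 3.11.15, pandas 2.3.3 and DESeq2 1.42.0. The fit was tested on simulated data first.

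Named genes were the 10 members, called genes of the pathway lists, in each list up to 4 with the smallest adjusted p, and the 5 nearest profiles of IGFBP3 and IGFBP1 (mean of at least 50 counts per library). Other genes named from the lists, among them the markers, PAPPA and the further PI3K-AKT genes, were added after their values were seen. The members and lists were chosen with earlier results of these data known. Positions came from GENCODE 29 on GRCh38 and promoters from RefSeq on GRCh38.p14. Alternatives were a stricter adjusted p, any fold, DESeq2, RLE factors, library size only, other count filters, the replicate number as a block, coding length and each library left out.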

Additional observations from a re-analysis of the deposited data

How the results depend on the processing

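The count of called members was 2 as reported and 4 with no limit on fold; the 2 were IGFBP1 and IGFBP3, whose increase chose the family, so that this count is no support for either. The number of genes called, 326 in the comparison as reported, was 148 at an adjusted p under 0.01, 2595 at any fold, 583 with all genes of at least 1 count, 199 with at least 10 counts in every library, and 200 to 335 with 1 library left out, the lowest without silenced replicate 1. The causes were not tested, apart from the stricter or looser limits themselves. The log2 fold change of IGF1R ranged from -0.021 to 0.124, and it was below 0 only without control replicate 2. IGFBP3 ranged from 1.64 to 2.26, the highest without silenced replicate 2.

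With the replicate number as a block, 380 genes and 2 members were called, and IGFBP6 (adjusted p 0.0411) and IGF2BP3 (adjusted p 0.0441) passed an adjusted p under 0.05 in edgeR. The study itself also numbers the silenced libraries in another order than the deposited column names used here, so that the number may not link libraries across groups. The libraries are not taken as paired in the comparison as reported. Deviations of same-numbered libraries correlated at 0.217, 0.218 and 0.0353 over 12131 genes, and those of other pairs at -0.222 to 0.0901. Silenced replicates 1 and 2 correlated best with the control library of their own number, and silenced replicate 3 with control replicate 1 (0.0901). IGF2BP3 also passed with library size only (adjusted p 0.0408), and IGFBP6 with all genes of at least 1 count (0.0172, both edgeR). The latter fit gave IGFBP3 an SE of 0.0882, against 0.358 as reported, despite its spread between silenced libraries. Nothing is therefore read from the pass of IGFBP6 in that fit. The list counts without silenced replicate 2 were added after seeing the data. By coding length, 25 of 28 pairs of members kept their order in control and 27 of 28 in silenced cells. With 3 libraries per group and the spread between them, small differences such as those of IGFBP4 and IGF1R cannot be told from 0.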
